A study of Homo sapiens with 9 samples.

Results

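The 9 genes described here are CDKN1A, MDM2, BTG2, TNFRSF10B, CMBL, GADD45A, SESN1, ZMAT3 and BBC3, which are known transcriptional targets of p53. They are 9 of 35876 gene symbols in the deposited table, and all 9 were among the 11905 genes with enough counts to be tested. They were chosen by name with earlier results of these libraries in view, and BTG2, TNFRSF10B and CMBL among them were selected on their measured log2 fold change between the Cre and Flpo groups. For that comparison the values of the 9 genes are therefore a description with no test. The other comparisons share libraries with it, so their p-values for BTG2, TNFRSF10B and CMBL are not independent of that choice.

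RNA was sequenced from HEK293, a human embryonic kidney cell line transformed with adenovirus E1 genes, in 3 groups of 3 libraries. All libraries carried Cas9, an RNA-guided DNA nuclease, and the labels prefix every genotype with CC, which they do not explain. The Cas9 group (genotype CC_Cas9) carried nothing else that the labels name, the Cre group (CC_Cas9_Cre) also carried the Cre recombinase, and the Flpo group (CC_Cas9_Flpo) also carried the Flpo recombinase. The labels give no guide, target gene, treatment or time, and do not say whether each genotype was 1 clone or whether replicates were separate cultures, so p-values measure only the spread between these libraries.

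p53 is a transcription factor that is kept low by MDM2, a ubiquitin ligase that marks it for destruction and is itself induced by p53. DNA breaks and other stresses release p53 from MDM2, and its targets then slow the cell cycle, repair damage, limit growth or start cell death. In HEK293 the adenovirus E1A protein stabilises p53 while E1B binds it and blunts its activity, so that its targets respond less than in cells without these proteins.

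The best known sites through which p53 acts on these genes are pairs of half-sites, and 2 promoter windows are shown because they hold such a pair next to an alternative start site. RefSeq promoter windows (GRCh38.p14), labelled by symbol, were used for 6 of the 9 genes. The promoters of the remaining genes were not searched, which does not mean that RefSeq has no window for them. The 250 bases before each start site were searched for 2 copies of the p53 half-site consensus, 0 to 3 bases apart. At most 3 mismatches were allowed, and the central C and G of each half-site had to be kept. The consensus reads the same on both strands. Of 35116 windows of that length from all genes, 3.95% held such a pair. MDM2 has it before its second, intronic promoter (chr12:68808767-68809016, plus strand), beginning 94 bases before the start site, with 2 mismatches and no spacer. SESN1, a stress-induced inhibitor of growth signalling, has it before its most downstream start site (chr6:109008989-109009238, minus strand), beginning 49 bases before the start, with 3 mismatches and no spacer. The capitals mark the pair.
MDM2: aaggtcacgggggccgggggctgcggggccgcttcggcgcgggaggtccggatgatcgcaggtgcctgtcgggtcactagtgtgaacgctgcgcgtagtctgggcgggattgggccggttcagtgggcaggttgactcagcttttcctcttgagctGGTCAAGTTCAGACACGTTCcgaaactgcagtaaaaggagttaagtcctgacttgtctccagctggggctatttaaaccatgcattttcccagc
SESN1: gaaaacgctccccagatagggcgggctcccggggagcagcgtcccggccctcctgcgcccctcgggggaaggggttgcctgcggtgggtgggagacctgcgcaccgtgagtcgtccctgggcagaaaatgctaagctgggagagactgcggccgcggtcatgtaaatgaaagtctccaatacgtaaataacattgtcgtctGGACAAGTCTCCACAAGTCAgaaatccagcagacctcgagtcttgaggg
The windows of CDKN1A, BTG2, ZMAT3 and BBC3 held no pair under these rules, which says only that these letters are not in those 250 bases. Counts were given per gene, so transcripts from the first and second MDM2 promoters could not be told apart.

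The libraries were of very unequal depth. The total estimated count ran from 993902 to 3761779 in the Cas9 group, from 213907 to 1701730 in the Cre group and from 4989524 to 8833491 in the Flpo group, so that every Flpo library was deeper than every other. Levels are given in CPM, counts per 1000000 of a library's TMM-scaled total, where TMM is edgeR's factor for unequal composition. Markers of HEK293 were present in part: KRT8, KRT18 and VIM held most of the list's counts, PAX2 had 1 count in all, and the summed level of the 7 markers was 582 to 1364 CPM in the Cas9 group, 505 to 1094 CPM in the Cre group and 1563 to 5352 CPM in the Flpo group. Of 7 hepatocyte markers, looked at because the extraction text speaks of liver, FGB was at 0 and the other 6 held 57 counts in all 9 libraries together. All 5 fibroblast markers were detected, and their summed level was 264 to 893 CPM in the Cas9 group, 550 to 6484 CPM in the Cre group and 253 to 326 CPM in the Flpo group. COL1A1, COL1A2 and COL3A1 were highest in Cre replicate 2, at 1631, 3927 and 866 CPM. Of 5 blood markers CD3E was at 0, and LYZ, at 32.2 to 249 CPM, held most of the list's counts. The part of depth or of these markers in the results below was not tested, except where values without a library or with depth in the fit are given.

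CDKN1A, which encodes the cell cycle inhibitor p21 (chromosome 6, 36676460 to 36687339), was as variable within groups as between them. CDKN1A was at 17.4, 82.6 and 136 CPM in Cas9 replicates 1, 2 and 3. It was at 69.2, 0 and 9.44 CPM in the Cre replicates, and at 85.6, 40.4 and 114 CPM in the Flpo replicates. The groups overlapped in every comparison, and the highest Cas9 library stood 7.82-fold above the lowest. The 0 in Cre replicate 2 allows a level of up to 11.2 CPM, which 3 counts would give in that library, and its Wilson 95% interval reaches 14.3 CPM. Group means were 78.9 ± 59.6 CPM for Cas9, 26.2 ± 37.5 CPM for Cre and 80.1 ± 37.3 CPM for Flpo (SD, n = 3 each). The log2 fold change was −1.44 (SE 0.94) for Cre against Cas9, with an edgeR adjusted p of 0.619, and 0.015 (SE 0.91) for Flpo against Cas9, with an edgeR adjusted p of 0.994. Without 1 library the value for Cre against Cas9 ran from −3.63 (without Cre replicate 1) to −0.79 (without Cas9 replicate 3), and with total count as a covariate it was −0.14.

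BTG2, an antiproliferative gene that also responds early to growth signals (chromosome 1, 203305491 to 203309602), had few counts. It was at 0.831, 5.74 and 14 CPM in the Cas9 replicates, from 1, 10 and 49 counts. In the Cre replicates it was at 2.44, 0 and 1.72 CPM, from 5, 0 and 2 counts, and only the first of these lies above the 3-count floor of its library. In the Flpo replicates it was at 21.4, 9.97 and 21.2 CPM, from 124, 39 and 133 counts. All 3 Flpo libraries lay above all 3 Cre libraries, while Cas9 replicate 3 lay above the lowest Flpo library. BTG2 had a log2 fold change of −1.94 (SE 0.97) for Cre against Cas9, with an edgeR adjusted p of 0.619. For Flpo against Cas9 it was 1.27 (SE 0.77), with an edgeR adjusted p of 0.375.

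GADD45A, a stress-induced regulator of arrest and repair (chromosome 1, 67685061 to 67688338), showed no clear difference between groups. It was at 7.48, 6.31 and 11.1 CPM in the Cas9 replicates, at 11.7, 11.2 and 8.58 CPM in the Cre replicates and at 14.3, 7.67 and 17.6 CPM in the Flpo replicates. All 3 groups overlapped. Its log2 fold changes were 0.31 (SE 0.62) for Cre against Cas9 and 0.65 (SE 0.57) for Flpo against Cas9, with edgeR adjusted p of 0.838 and 0.542.

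The cell death genes did not share a pattern. TNFRSF10B encodes the death receptor DR5, a receptor for the ligand TRAIL (chromosome 8, 23020133 to 23069179). It was at 25.8, 13.2 and 30.6 CPM in the Cas9 replicates, at 15.1, 14.9 and 15.4 CPM in the Cre replicates, and at 116, 61.1 and 101 CPM in the Flpo replicates. All 3 Flpo libraries stood above the other 6, by a wide gap, while the Cre and Cas9 libraries overlapped. Its log2 fold change for Flpo against Cas9 was 1.99 (SE 0.50), the largest of the 9 genes in that comparison. The edgeR adjusted p was 0.0747, which does not pass 0.05. With DESeq2 it passed, at an adjusted p of 0.00479, and in edgeR without the filter on low counts, at 0.0496. Both settings passed far more genes of the whole table than the main fit. In edgeR it did not pass without TMM (0.125), with only the 2 groups compared (0.121) or with total count as a covariate (0.279). TNFRSF10B was selected on its difference between Cre and Flpo, so these p-values are not independent of that choice. RHOBTB2 overlaps this gene on the opposite strand and had 141 counts in all. For Cre against Cas9 the log2 fold change of TNFRSF10B was −0.61 (SE 0.52), with an edgeR adjusted p of 0.656.

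BBC3 encodes PUMA, a protein that triggers cell death by binding the protective members of the BCL2 family (chromosome 19, 47220822 to 47232766). It was at 4.99, 9.75 and 13.1 CPM in the Cas9 replicates, at 16.6, 3.73 and 8.58 CPM in the Cre replicates, the second from 1 count, and at 6.04, 8.43 and 10.5 CPM in the Flpo replicates. The group means of 9.29 ± 4.09, 9.63 ± 6.48 and 8.34 ± 2.25 CPM (SD, n = 3 each, Cas9, Cre and Flpo) lay well within one another's spread. The log2 fold changes of BBC3 were 0.17 (SE 0.67) for Cre against Cas9 and −0.19 (SE 0.63) for Flpo against Cas9, with edgeR adjusted p of 0.918 and 0.890.

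MDM2 and ZMAT3 were the most abundant of the 9 genes by CPM, and their means in the Flpo group lay on opposite sides of the Cas9 means. MDM2, the ubiquitin ligase that restrains p53 (chromosome 12, 68808176 to 68850686), was at 399, 218 and 322 CPM in the Cas9 replicates. It was at 324, 411 and 498 CPM in the Cre replicates and at 504, 580 and 543 CPM in the Flpo replicates. All Flpo libraries lay above the other 6, by as little as 504 against 498 CPM, and this order depends on TMM scaling. By share of the unscaled total, Cas9 replicate 1 (480 counts of 993902) lay above Flpo replicate 1 (2919 of 8833491). MDM2 had a log2 fold change of 0.79 (SE 0.51) for Flpo against Cas9, with an edgeR adjusted p of 0.404. For Cre against Cas9 it was 0.39 (SE 0.51), with an edgeR adjusted p of 0.751. Without TMM the log2 fold change of MDM2 for Flpo against Cas9 was 0.235, with an edgeR adjusted p of 0.803. In every library MDM2 ranked above at least 96% of tested genes. An exon of MDM2 overlaps one of the carboxypeptidase M gene on the opposite strand, which had 2086 counts in all, and since the use of strand in counting is not stated, reads of the pair may have been mixed.

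ZMAT3, an RNA-binding zinc finger protein (chromosome 3, 179017223 to 179072279), was at 421, 269 and 231 CPM in the Cas9 replicates. It was at 314, 392 and 551 CPM in the Cre replicates and at 121, 249 and 75.5 CPM in the Flpo replicates. All Cre libraries lay above all Flpo libraries, and the Cas9 libraries overlapped both. The mean of ZMAT3 was 149 ± 90 CPM in the Flpo group against 307 ± 101 CPM in the Cas9 group (SD, n = 3 each). The log2 fold change of ZMAT3 for Flpo against Cas9 was −1.05 (SE 0.57), with an edgeR adjusted p of 0.325. For Cre against Cas9 it was 0.45 (SE 0.57), with an edgeR adjusted p of 0.742.

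The metabolic genes were higher by their means in the Flpo group. CMBL, a cytosolic hydrolase (chromosome 5, 10275875 to 10308026), was at 72.3, 93 and 115 CPM in the Cas9 replicates, at 65.3, 33.6 and 77.2 CPM in the Cre replicates and at 318, 151 and 290.1 CPM in the Flpo replicates. All Flpo libraries lay above the other 6, and the lowest of them, replicate 2, stood apart from the other two. CMBL had a log2 fold change of 1.43 (SE 0.50) for Flpo against Cas9, with an edgeR adjusted p of 0.141, or 0.0400 with DESeq2. The edgeR adjusted p was 0.270 without TMM and 0.678 with total count as a covariate. For Cre against Cas9 the log2 fold change of CMBL was −0.64 (SE 0.50), with an edgeR adjusted p of 0.636.

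SESN1 (chromosome 6, 108986437 to 109094819) had the lowest mean CPM of the 9 over all libraries. It was at 9.97, 2.3 and 4 CPM in the Cas9 replicates, at 8.77, 3.73 and 3.43 CPM in the Cre replicates and at 14.7, 6.9 and 15.6 CPM in the Flpo replicates. Flpo replicates 1 and 3 lay above all other libraries, and Flpo replicate 2 lay among them. SESN1 had a log2 fold change of 1.25 (SE 0.72) for Flpo against Cas9, with an edgeR adjusted p of 0.346. For Cre against Cas9 it was 0.15 (SE 0.78), with an edgeR adjusted p of 0.938.

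**Figure D1:**
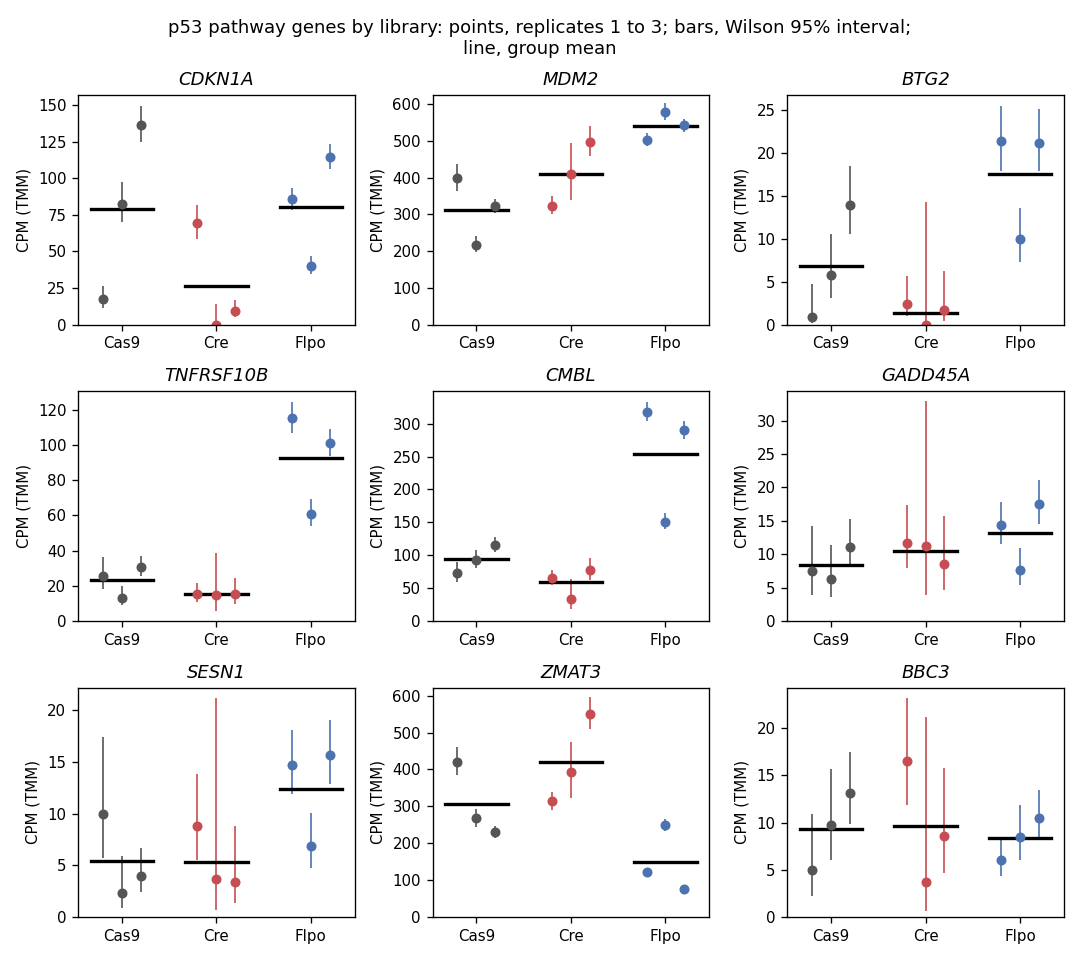
Level of each of the 9 genes in CPM (vertical axes, from 0) in the 3 replicates of each group; bars are Wilson 95% intervals, which cover counting error only, and black lines are group means. TNFRSF10B, CMBL and MDM2 show all Flpo libraries above all others, for MDM2 with TMM scaling only. ZMAT3 shows all Flpo libraries below all Cre libraries, and CDKN1A is spread from 17.4 to 136 CPM within the Cas9 group alone.

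Counted together, 0 of the 9 genes passed an edgeR adjusted p of 0.05 in Cre against Cas9, where 0% of all tested genes passed, and 0 of 9 passed with DESeq2. At an unadjusted edgeR p under 0.05 there were 0 of 9, beside 7.38% of all tested genes. In Flpo against Cas9 0 of 9 passed, where 0.227% of all tested genes did, and 2 of the 9 (TNFRSF10B and CMBL) had an unadjusted p under 0.05, as did 20% of all genes, in edgeR. The Flpo and Cas9 libraries did not overlap for 3 of the 9, MDM2, TNFRSF10B and CMBL, all higher in the Flpo group, where 12.8% of all genes were higher without overlap. For MDM2 this order depends on TMM scaling. Cre and Cas9 libraries overlapped for all 9, where 9.83% of all genes did not overlap. The median log2 fold change of the 9 was 0.15 in Cre against Cas9 and 0.79 in Flpo against Cas9, beside −0.22 and 0.046 over all tested genes. In Flpo against Cas9 the median of the 9 was 0.235 without TMM, where the median of all genes also fell. It was 0.182 with total count as a covariate. The Cre and Flpo groups were each set against the same Cas9 libraries, so these values are not independent of each other. BTG2, TNFRSF10B and CMBL were selected on a difference between these Cre and Flpo libraries. Their part in these counts, p-values and medians is therefore not an independent test.

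Between the Cre and Flpo groups the 9 genes are described only. The log2 fold changes of BTG2, TNFRSF10B and CMBL were −3.21 (SE 0.96), −2.61 (SE 0.53) and −2.08 (SE 0.52), the contrast that chose them. With total count as a covariate they stood at 0.63, −2.07 and −0.73. CDKN1A followed at −1.45 (SE 0.94) and SESN1 at −1.09 (SE 0.75). MDM2 and GADD45A, at −0.40 and −0.34, stood close to the median of all tested genes, which was itself −0.34. ZMAT3 and BBC3 lay above 0, at 1.50 (SE 0.58) and 0.36 (SE 0.65). With the covariate CDKN1A stood at 3.20, GADD45A at 0.41 and BBC3 at 2.06, and the median of the 9 went from −1.09 to 0.41. Libraries did not overlap for 4 genes lower and 1 higher in the Cre group, where 27.9% of all genes were lower and 15.2% higher without overlap (43.2% in all), and 20.5% passed the edgeR threshold. Of the 4 lower genes, BTG2 had 0 counts in Cre replicate 2, too few to place that library below Flpo replicate 2. The order of MDM2, also among the 4, depends on TMM scaling. Without TMM scaling the median of all genes moved to 0.44, and MDM2 and GADD45A then stood above 0, at 0.39 and 0.45.

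**Figure D2:**
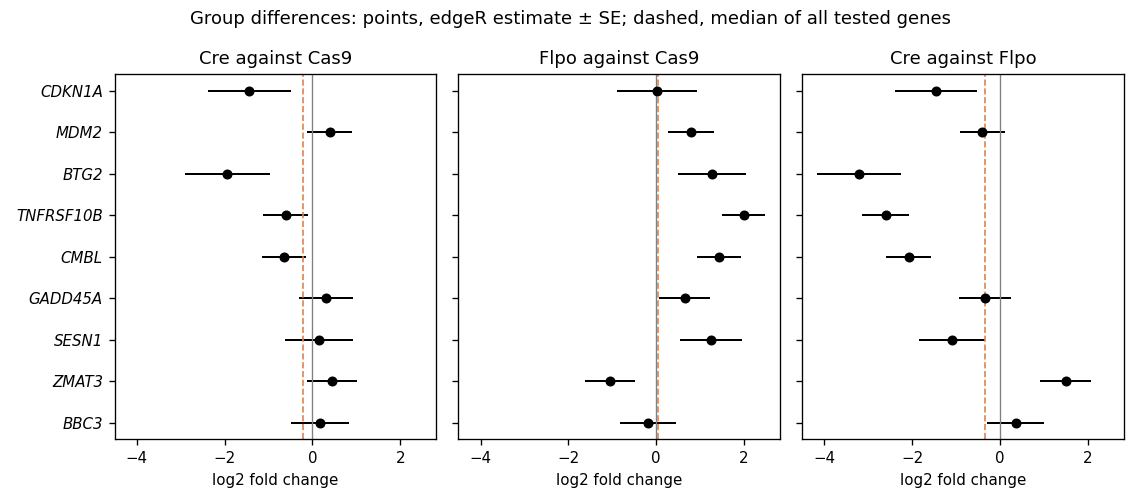
Log2 fold change of each gene (horizontal axes) in the 3 comparisons, with points for edgeR's estimate, bars for its standard error and a dashed line for the median of all tested genes. BTG2, TNFRSF10B and CMBL lie left in Cre against Flpo and right in Flpo against Cas9, ZMAT3 lies on the opposite side in both, and BBC3 lies near 0 throughout.

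For CDKN1A the order of the libraries followed their depth in the Cas9 and Cre groups. Cas9 replicate 2 and Cre replicate 1, with totals of 1643166 and 1701730, held CDKN1A at 82.6 and 69.2 CPM. Cas9 replicate 1 and Cre replicate 3, with totals of 993902 and 891567, held it at 17.4 and 9.44 CPM. The deepest Cas9 library, replicate 3, held it at 136 CPM and the shallowest Cre library, replicate 2, at 0. BTG2 and BBC3 also rose with depth in both groups, as did 13.4% of all tested genes (31.2% in the Cas9 group and 30.3% in the Cre group taken singly). BTG2 did so in the Flpo group too, as did TNFRSF10B and CMBL, beside 19.5% of all genes. CMBL also rose with depth in the Cas9 group. ZMAT3 fell with depth in the Cas9 group, beside 28.7% of all genes, and MDM2 fell with depth in the Flpo group, beside 8.62%. None of the 9 fell with depth in the Cre group, beside 14.7% of all genes. When the log2 of the total count entered the fit as a covariate, CDKN1A had a log2 fold change of −3.34 for Flpo against Cas9 and BTG2 of −1.18, both turned in sign, while TNFRSF10B stayed between 1.44 and 2.25 in every alternative run. Depth and group cannot be told apart for the Flpo comparisons, since no other library was as deep as any Flpo library.

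**Figure D3:**
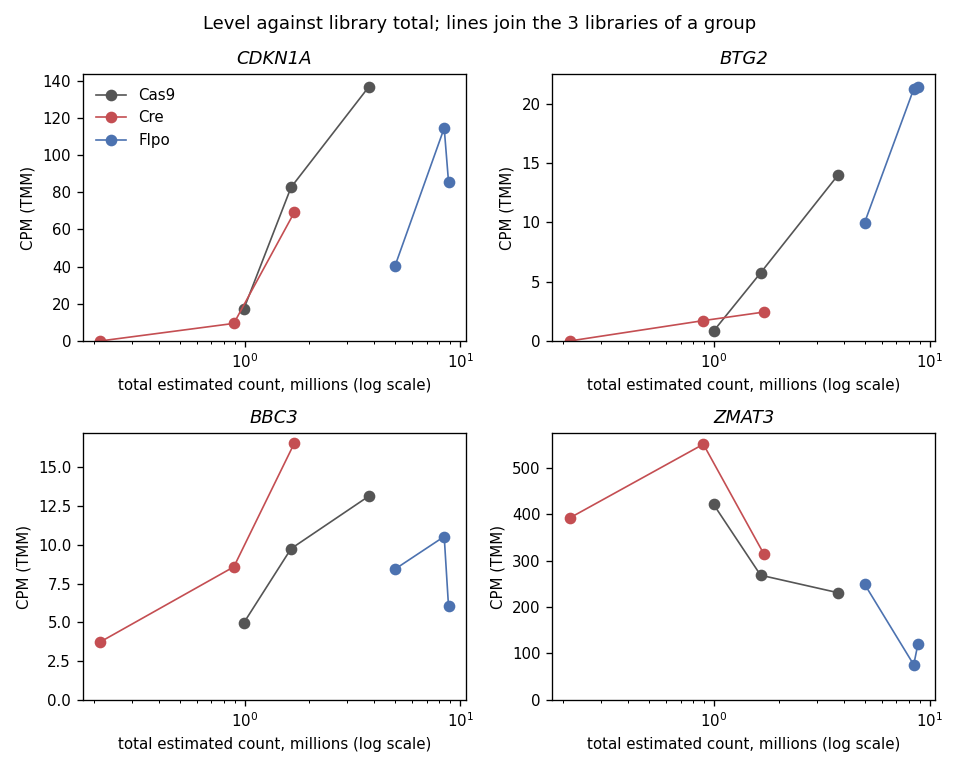
Level of CDKN1A, BTG2, BBC3 and ZMAT3 in CPM (vertical axes) against the total estimated count of the library (horizontal log axes, in units of 1000000 counts), with lines joining the 3 libraries of a group. CDKN1A, BTG2 and BBC3 rise with the total within the Cas9 and Cre groups, and ZMAT3 falls with it within the Cas9 group.

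Set per length of transcript, MDM2 ranked first and SESN1 last. With the median length of a gene's coding transcripts in GENCODE release 29, MDM2 was at 529 ± 149 CPM per kilobase over the 9 libraries (SD) and ZMAT3 at 99 ± 50.4. CMBL followed at 57.9 ± 43.5, CDKN1A at 29.3 ± 22.8, TNFRSF10B at 14.9 ± 13.5 and GADD45A at 11.8 ± 4.01 CPM per kilobase. BBC3 was at 5.4 ± 2.4, BTG2 at 3.17 ± 3.15 and SESN1 at 2.84 ± 1.82 CPM per kilobase. Neighbours in this order from ZMAT3 down differed by less than the larger of their SDs, except GADD45A and BBC3. The lead of MDM2 rests on the length chosen: its median coding transcript has 798 bases and its longest 12633, and with longest transcripts MDM2 was at 33.4 CPM per kilobase, under CMBL at 57.9.

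MDM4, the partner of MDM2 in holding p53 in check, was at 184, 133 and 133 CPM in the Cas9 replicates, at 205, 287 and 329 CPM in the Cre replicates and at 200.1, 199 and 180 CPM in the Flpo replicates. MDM4 did not pass in any comparison, with edgeR adjusted p of 0.619 for Cre and 0.672 for Flpo, each against Cas9, and of 0.413 between Cre and Flpo. All 3 Cre libraries of MDM4 lay above all 3 Cas9 libraries, where 9.83% of all tested genes did not overlap in either direction. They also lay above all 3 Flpo libraries, as did 15.2% of all tested genes. PPM1D, a phosphatase that p53 induces and that switches the damage signal off, was at 11.6, 9.75 and 12.6 CPM in the Cas9 replicates and at 55, 22.5 and 69.6 CPM in the Flpo replicates. Its Flpo libraries lay above its Cas9 libraries without overlap, as did 12.8% of all tested genes. PPM1D had a log2 fold change of 2.11 (SE 0.57) for Flpo against Cas9 and an edgeR adjusted p of 0.0884. It passed with DESeq2 (adjusted p of 0.0125) and in edgeR without the filter on low counts (0.0483). Both settings passed far more genes of the whole table than the main fit. In edgeR it did not pass without TMM (0.133), with only the 2 groups compared (0.121), with a replicate block (0.190) or with total count as a covariate (0.243). In the Cre replicates PPM1D was at 11.7, 26.1 and 21.4 CPM.

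None of the 101 tested genes on the 9 lists of other pathway genes passed against Cas9 in edgeR. At an unadjusted p under 0.05 there were 12 for Cre and 29 for Flpo, beside 7.38% and 20% of all tested genes, and DESeq2 passed 0 and 14. The calls given below are therefore between Cre and Flpo, where 27 of the 101 passed, beside 20.5% of all tested genes.

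Other regulators of p53 had few calls between the Cre and Flpo groups, with a list median of −0.0062. Of 19 listed, 18 were tested, and 1 was higher and 2 were lower in the Cre group, where 6.17% of all tested genes were higher and 14.3% lower by the same edgeR threshold. ATM, the kinase that signals DNA breaks to p53, was higher in the Cre group, at 333 against 75.4 CPM, with a log2 fold change of 2.14 (SE 0.60) and an edgeR adjusted p of 0.0301. CDKN2A, whose ARF product inhibits MDM2, was lower, at 7.47 against 134 CPM, with a log2 fold change of −4.30 (SE 0.93) and an edgeR adjusted p of 0.0172. Counts were given per gene, so the transcripts for ARF could not be told apart from other transcripts of CDKN2A. KAT5, an acetyltransferase that acts on ATM and p53, was lower at −3.97 (SE 1.03), with an edgeR adjusted p of 0.0236. Against Cas9 the median log2 fold change of the list was 0.023 for Cre and −0.041 for Flpo.

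Other p53 targets were taken from 3 lists with 39 genes in all, of which 31 were tested. Their median log2 fold change was −0.34 for Cre against Cas9 and 0.57 for Flpo against Cas9. Between Cre and Flpo 2 were higher and 4 lower. By the same edgeR threshold 6.17% of all tested genes were higher and 14.3% lower, so both counts lie near the background. All 4 lower genes are on the cell death list, and so is 1 of the 2 higher genes, which is not named here and stood at 4.34 (SE 1.15), with an edgeR adjusted p of 0.0253. Of 15 cell death targets 11 were tested, and PERP, a membrane protein of desmosomes and of p53-driven death, was lowest, at 4.47 against 221 CPM, with a log2 fold change of −5.22 (SE 0.96) and an edgeR adjusted p of 0.0167. PMAIP1, which encodes the BCL2-binding protein NOXA, was at −4.33 (SE 0.83), TNFRSF10A, which encodes the other TRAIL death receptor DR4, at −2.67 (SE 0.64), and BAX, which opens the mitochondrial membrane, at −2.01 (SE 0.56). PERP was at 11.7, 0 and 1.72 CPM in the Cre replicates, the last 2 under the 3-count floor, so the size of its change is uncertain. The median of the cell death list was −1.72, beside −0.34 over all tested genes, and −0.76 with the covariate, where edgeR passed 0 of the 11 (0 unadjusted).

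The arrest and repair targets and the metabolic targets had fewer calls. Of 12 arrest and repair targets 10 were tested, and SFN, which encodes the arrest protein 14-3-3 sigma, was the one that passed, higher in the Cre group at 35.9 against 4.36 CPM, with a log2 fold change of 3.05 (SE 0.60) and an edgeR adjusted p of 0.0167. The list's median was −0.078. RPS27L and DDB2, its most abundant members, were at 334 and 179 CPM in the Cre group and at 338 and 160.5 CPM in the Flpo group, close to equal. Of 12 metabolic and growth targets 10 were tested and none passed in edgeR (DESeq2 passed 2), with a median of −0.96. DDIT4, an inhibitor of growth signalling, was the most abundant, at 15.6 CPM in the Cre group, 72.2 CPM in the Cas9 group and 146 CPM in the Flpo group, and ISCU, a scaffold for iron-sulfur clusters, was at 25.7, 25.3 and 67 CPM.

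Cell cycle genes that p53 represses through p21 were the list with the most calls, all lower in the Cre group. Of 24 listed 23 were tested, all 23 had a log2 fold change below 0 in Cre against Flpo, and 12 passed, where 14.3% of all tested genes were lower past the threshold. Their median was −2.79. AURKB and CDC20, a mitotic kinase and an activator of the anaphase-promoting complex, were at −3.43 (SE 0.81) and −3.35 (SE 0.72). CCNB2, a mitotic cyclin, and MCM6, a subunit of the replicative helicase, were at −3.22 (SE 0.86) and −3.11 (SE 0.89). Their edgeR adjusted p were 0.0195, 0.0172, 0.0254 and 0.0316. Against Cas9 the median was −0.99 for Cre and 1.33 for Flpo. MCM4 and BIRC5, the most abundant of the list, were at 387 and 322 CPM in the Cre group, 959 and 257 CPM in the Cas9 group and 856 and 342 CPM in the Flpo group. Without TMM 7 of the 23 passed and 21 lay below 0. With the total count as a covariate 0 passed in edgeR, 0 at an unadjusted p under 0.05, 11 lay below 0 and the median was 0.11, so the direction of the list does not hold there. CDKN1A, the inhibitor through which this repression is known to run, stood at −1.45 (SE 0.94) between the same groups, and at 3.20 with the covariate. These values are a description, and a link to the list was not tested.

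Relatives of the 9 genes by sequence or function were also listed, 21 in all, of which 15 were tested. In Cre against Flpo 4 were lower, beside 14.3% of all tested genes: PMAIP1 and TNFRSF10A, given above, TOB1 at −3.31 (SE 0.77) and GADD45B at −3.50 (SE 1.01). TOB1 is an antiproliferative relative of BTG2, and its libraries overlapped, at 26.1 CPM in Cre replicate 2 and 26.1 CPM in Flpo replicate 2. GADD45B had edgeR adjusted p of 0.0320 where GADD45A stood at −0.34, near the median of all genes. GADD45B was at 6.82, 0 and 0 CPM in the Cre replicates, so the size of its change is uncertain. Of 7 BCL2 family proteins that BBC3 acts on, directly or downstream, 4 were tested and 2 were lower in the Cre group, beside the same 14.3%, BAX and the protective protein MCL1 at −2.60 (SE 0.84), with an edgeR adjusted p of 0.0445 for MCL1.

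TNFRSF10B and GADD45A are also induced in the integrated stress response, and BTG2 as an immediate early gene. Of 8 stress response genes 7 were tested and 2 were lower in Cre against Flpo, beside 14.3% of all tested genes: ATF4, the pathway's transcription factor, at −3.27 (SE 0.89) and PPP1R15A at −2.78 (SE 0.79), with edgeR adjusted p of 0.0268 and 0.0303. Of 9 immediate early genes 8 were tested and 1, MYC, was lower, a share near that background, at −4.86 (SE 1.09), with an edgeR adjusted p of 0.0182. MYC was at 0.487, 0 and 2.57 CPM in the Cre replicates, none above the 3-count floor, so the size of its change is uncertain. JUN and EGR1, the most abundant, were at 305 and 87.5 CPM in the Cas9 group, 112 and 24 CPM in the Cre group and 42.5 and 46.4 CPM in the Flpo group.

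These calls depend on single libraries. In edgeR fits of the whole table without Cre replicate 2, 0 genes passed between Cre and Flpo (4721 had an unadjusted p under 0.05). The same count was 0 when Cre replicate 3 was dropped (3359 unadjusted) and 0 when Flpo replicate 1 was dropped (3233 unadjusted). It was 405 without Flpo replicate 3, 1386 without Cas9 replicate 2 and 5559 without Flpo replicate 2. The covariate for total count left 0 (732 unadjusted). Several of the lower genes also had few counts in the Cre group. The 3-count floors of Cre replicates 2 and 3 were 11.2 and 2.57 CPM. PERP, TNFRSF10A, KAT5, CCNB2, MCM6, GADD45B and MYC lay at or under both floors, so the sizes of their changes are uncertain.

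**Figure D4:**
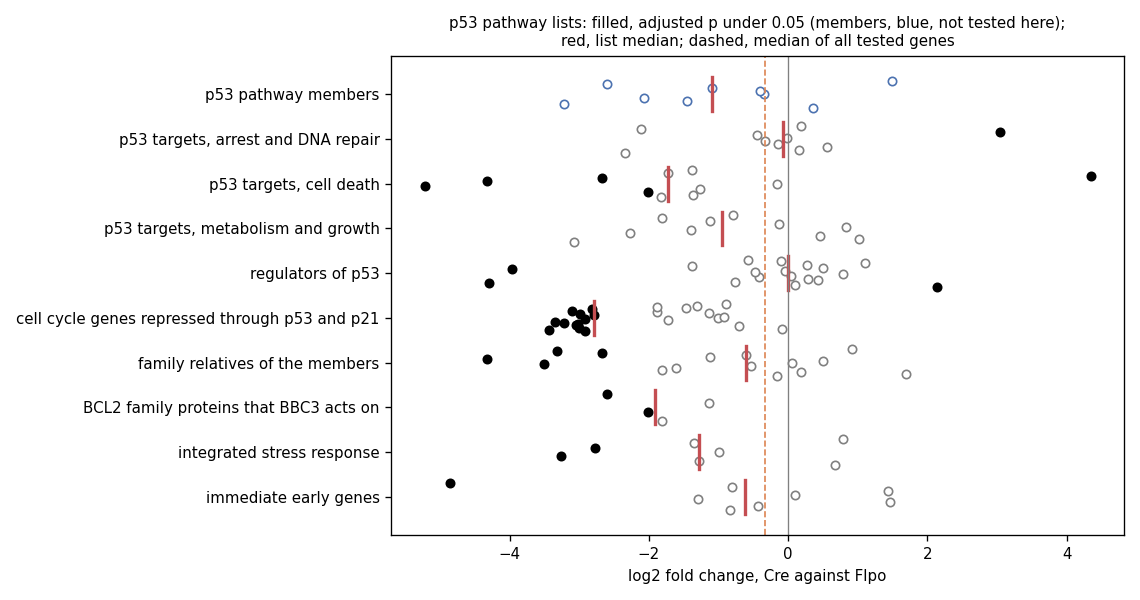
Log2 fold change between the Cre and Flpo groups (horizontal axis) of each tested gene in the 9 genes and the 9 lists of other pathway genes (rows). Filled points passed an edgeR adjusted p of 0.05, open points did not, blue points are the 9 genes, which were not tested here, red bars are list medians, and the cell cycle list lies wholly below 0 with a median of −2.79.

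The genes most like each of the 9 over the 9 libraries were found by Pearson's correlation of log2(CPM + 1) among 6648 protein-coding or unclassified genes with a mean of at least 20 CPM. The libraries share group and depth, so high values are common. ZMAT3 was most like FAM126B, MNT and CAMK1D (r of 0.996, 0.995 and 0.994), and 1079 genes reached at least 0.9 with it. CDKN1A was most like PMM1, PPP6R2 and ARC (r of 0.990, 0.990 and 0.989), with 665 such genes, and BTG2 most like FIP1L1, PIK3R2 and TBCC (r of 0.994, 0.990 and 0.989), with 599. CMBL was most like EI24, PSMG3 and WDR77 (r of 0.990, 0.986 and 0.985), with 431, and TNFRSF10B most like KRBOX4, CDKAL1 and RAB36 (r of 0.989, 0.989 and 0.988), with 208. MDM2 had 6 such genes, led by NUDT4, TTC5 and EYA3 (r of 0.936, 0.927 and 0.919). SESN1 and GADD45A had 1 each, WWTR1 (r of 0.939) and PTCD1 (r of 0.906), followed by UQCC3 and CISD2 (0.895 and 0.891) for SESN1 and by MAT2A and ZADH2 (0.878 and 0.873) for GADD45A. BBC3 had none, and its nearest were SETD2, CCM2 and USP48 (r of 0.896, 0.880 and 0.854). Among the 9 themselves, CMBL paired with BTG2 at r of 0.93 and with TNFRSF10B at 0.90, and CDKN1A paired with BTG2 at 0.84, while CDKN1A and MDM2 were at −0.17. ZMAT3 was at −0.86 with CMBL and −0.84 with TNFRSF10B.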

How the data were processed

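RNA-seq libraries from 9 HEK293 samples were analysed from a single table that gives estimated counts by gene symbol. The authors deposited these expected counts without scaling to a common total. Salmon 0.14.1 and the build hg38 are named in the submitters' processing notes, without a role. Annotation, filters and use of strand are not given in the sources used here. Non-whole values made up 48.7% to 60.8% of the values above 0, depending on the library, and included MDM2, TNFRSF10B, CMBL and ZMAT3 in all libraries, so counts were rounded before testing. Coordinates and lengths came from GENCODE release 29 on GRCh38, matched for 35378 of 35876 symbols.

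All 9 libraries were fitted together in R 4.3.3 using the quasi-likelihood test of edgeR 4.0.16 with TMM scaling, its default filter (minimum count 10, minimum total 15) and no covariates, on 11905 genes. P-values were Benjamini-Hochberg adjusted over all tested genes, with a threshold of 0.05. Standard errors of log2 fold changes were obtained from the F statistic, as size over the root of F. The biological coefficient of variation was 0.556. The code was tested on simulated data for Flpo against Cas9, with less spread than these libraries. That test does not measure how often calls are missed or false at the spread seen here. The Wilson 95% intervals, and the 3-count floors, reflect counting error alone. Alternatives, with DESeq2 1.42.0 among them, are given in the closing section.

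The 9 genes and all lists were chosen with earlier results of these data known. The rule for naming took from each list up to 4 genes past the threshold in each direction, largest change first, or its 2 most abundant genes where none passed, always MDM4 and PPM1D, and the 3 genes most like each of the 9. Results of some listed genes are not reported here.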

Additional observations from a re-analysis of the deposited data

Results flagged for a closer look

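Among 110 tested genes of the p53 pathway lists, the 9 genes included, 3 had every Cre library on one side of all Cas9 libraries and every Flpo library on the other, as did 1.14% of all tested genes. PERP was below Cas9 in the Cre group and above it in the Flpo group, with a log2 fold change between Cre and Flpo of −5.22 (SE 0.96), an edgeR adjusted p of 0.0167. TNFRSF10A had the same order, at −2.67 (SE 0.64) and an edgeR adjusted p of 0.0201. PERP and TNFRSF10A lay at or under the 3-count floor in Cre replicates 2 and 3, so the sizes of their changes are uncertain. SFN had the opposite order, at 3.05 (SE 0.60) and an edgeR adjusted p of 0.0167. Against Cas9 alone none of the 3 passed, with edgeR adjusted p of 0.619 for each in the Cre group and of 0.0955, 0.165 and 0.113 for PERP, TNFRSF10A and SFN in the Flpo group. None of the 9 genes described above showed such an order.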

How the results depend on the processing

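For all genes in Cre against Cas9, 0 passed in edgeR (879 at an unadjusted p under 0.05), against 4 with DESeq2, 51 without a filter on low counts and 0 in each fit without 1 library. In Flpo against Cas9, 27 passed, against 1065 with DESeq2, 1169 without the filter, 12 without TMM, 0 with only the 2 groups compared (2807 unadjusted), 0 with total count (log2) as a covariate and 0 to 2685 without 1 library (0 without Cre replicate 2, Flpo replicate 1 or 3, or Cas9 replicate 1 or 2, and 2685 without Flpo replicate 2). In Cre against Flpo, 2440 passed, against 3976 with DESeq2, 0 with the covariate and 0 to 5559 without 1 library. Of these calls 30.1% were higher in Cre, or 70.8% when TMM was left out, and the median log2 fold change in Flpo against Cas9 moved to −0.48. A replicate block left 6 genes past the threshold in Flpo against Cas9, 1568 in Cre against Flpo and 0 in Cre against Cas9. The numbers in the titles are not said to pair the libraries, and deviations of same-numbered libraries correlated on average at −0.34 for Cre with Cas9, −0.096 for Flpo with Cas9 and 0.11 for Cre with Flpo.

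Of the 9 genes, 0 passed in Flpo against Cas9, against 2 with DESeq2, 1 without the filter and 0 to 2 without 1 library, the 2 being TNFRSF10B and CMBL without Flpo replicate 2. CDKN1A in Flpo against Cas9 turned in sign to −0.45 without TMM, −0.045 with a stricter filter, −0.014 with only the 2 groups, −0.26 with the block and −3.34 with the covariate, and ran from −0.46 to 0.66 without 1 library. Without 1 library, BBC3 ran from −0.47 to 0.15 in Flpo against Cas9 and from −0.47 to 0.51 in Cre against Cas9, where SESN1 ran from −0.59 to 0.85. MDM4 in Flpo against Cas9 turned to −0.20 without TMM, and BTG2 to −1.18 with the covariate. In Cre against Flpo the covariate turned CDKN1A to 3.20, BTG2 to 0.63 and GADD45A to 0.41, and among called genes 1 cell death target to −0.049, CCNB2 to 0.36, MCM2 to 0.57, MCM3 to 0.11, MCM6 to 0.48, GADD45B to 0.25, MCL1 to 0.73 and PPP1R15A to 0.44. For results that changed, the cause was not tested. Depth limits CDKN1A, BTG2, SESN1, BBC3 and GADD45A most, with 0 to 3 counts each in Cre replicate 2, where TNFRSF10B had 4 and CMBL 9.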
